A study of Mus musculus with 10 samples.

Results

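Fatty acid synthesis and desaturation were followed through 10 genes of mouse melanoma tumors, Srebf1, Acly, Acaca, Fasn, Elovl5, Elovl6, Fads1, Fads2, Scd1 and Scd2. They are 10 of the 27919 gene symbols in the expression table, each matched by its symbol, and all 10 were listed and passed the filter of a mean TPM (transcript abundance per length, scaled to about the same sum in each library) of at least 1 over tumors. They were picked with the difference between Ly86 and vector tumors already known, so that difference is described here and not tested. The study measured RNA in tumors of B16F10, a mouse melanoma line, with an Ly86 overexpression construct, against B16F10 tumors that carried the vector. Mice of both groups had been given anti-PD-1 plus anti-CTLA4, antibodies that block inhibitory receptors of T cells, in 4 rounds, and tumors were snap-frozen at harvest. Mouse strain and age, the promoter of the construct and whether each line was a clone are not given in the sources used here. There were 4 Ly86 tumors and 3 vector tumors. Ly86 tumor 1 and vector tumors 1 and 2 had each been divided into 2 pieces with a library each, which makes 10 libraries. A divided tumor was given the mean of the log2 values of its pieces and counted as 1 replicate.

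New fatty acids are built in the cytosol from citrate. ATP citrate lyase cuts citrate to acetyl-CoA, acetyl-CoA carboxylase turns this into malonyl-CoA, and fatty acid synthase joins the units into palmitate. Elongases lengthen the chain and desaturases place double bonds in it, while the transcription factors of the SREBP family, held in the endoplasmic reticulum when sterols are plentiful, switch on most of these genes. Tumor cells are known for making fatty acids even where the blood supplies them, and macrophages, adipocytes, sebaceous cells and Schwann cells also express parts of the set.

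Values were log2(TPM + 1), and since TPM keeps no depth, how many reads stand behind a value is unknown. Between 19304 and 21882 genes were above 0 in a library. Ly86 itself, which encodes the secreted protein MD-1, stood at 49.1 to 81.9 TPM in the 5 libraries of Ly86 tumors. In the vector libraries it stood at 6.24 to 30.3 TPM, except for the library labelled as piece 1 of vector tumor 2, which held 80.9 TPM and thus lay inside the Ly86 range. That library also stood apart in cell type markers, and the difference of each of the 10 genes without it is given beside that with it. The table has a single value for Ly86, so RNA of the construct and of the mouse's own gene cannot be told apart. Over the vector libraries, Ly86 followed the order of the summed macrophage markers described below, from 6.24 TPM (markers 204 TPM) to 80.9 TPM (markers 3351 TPM). In Ly86 libraries these markers summed to 1124 to 2094 TPM. The source of the Ly86 RNA was not tested. The tumors carried the markers of their label, with 10 melanocyte and melanoma genes summing to 14451 to 21231 TPM in Ly86 libraries and 10266 to 20029 TPM in vector libraries.

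All 10 genes averaged lower in the Ly86 tumors than in the vector tumors, by 0.04 (Elovl5) to 0.78 (Scd1) on the log2 scale, with a median difference of -0.41. The median over the 14556 genes tested was -0.04, and 56.2% of them lay below 0. Groups of tumors did not overlap for 4 of the 10 genes, Scd1, Elovl6, Fads1 and Srebf1, and 5.75% of all genes tested were non-overlapping and lower, with 4.71% non-overlapping and higher. With limma, a linear model fitted to all genes together, 0 of 14556 genes passed an adjusted p of 0.05 (Benjamini-Hochberg), a share of 0%, and so none of the 10 did. At an unadjusted limma p under 0.05, 724 genes were lower (4.97%) and 841 higher (5.78%), and 7 of the 10 genes were among the lower ones. Nothing is read from these counts, because this same contrast was in view when the genes were picked.

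**Figure D1:**
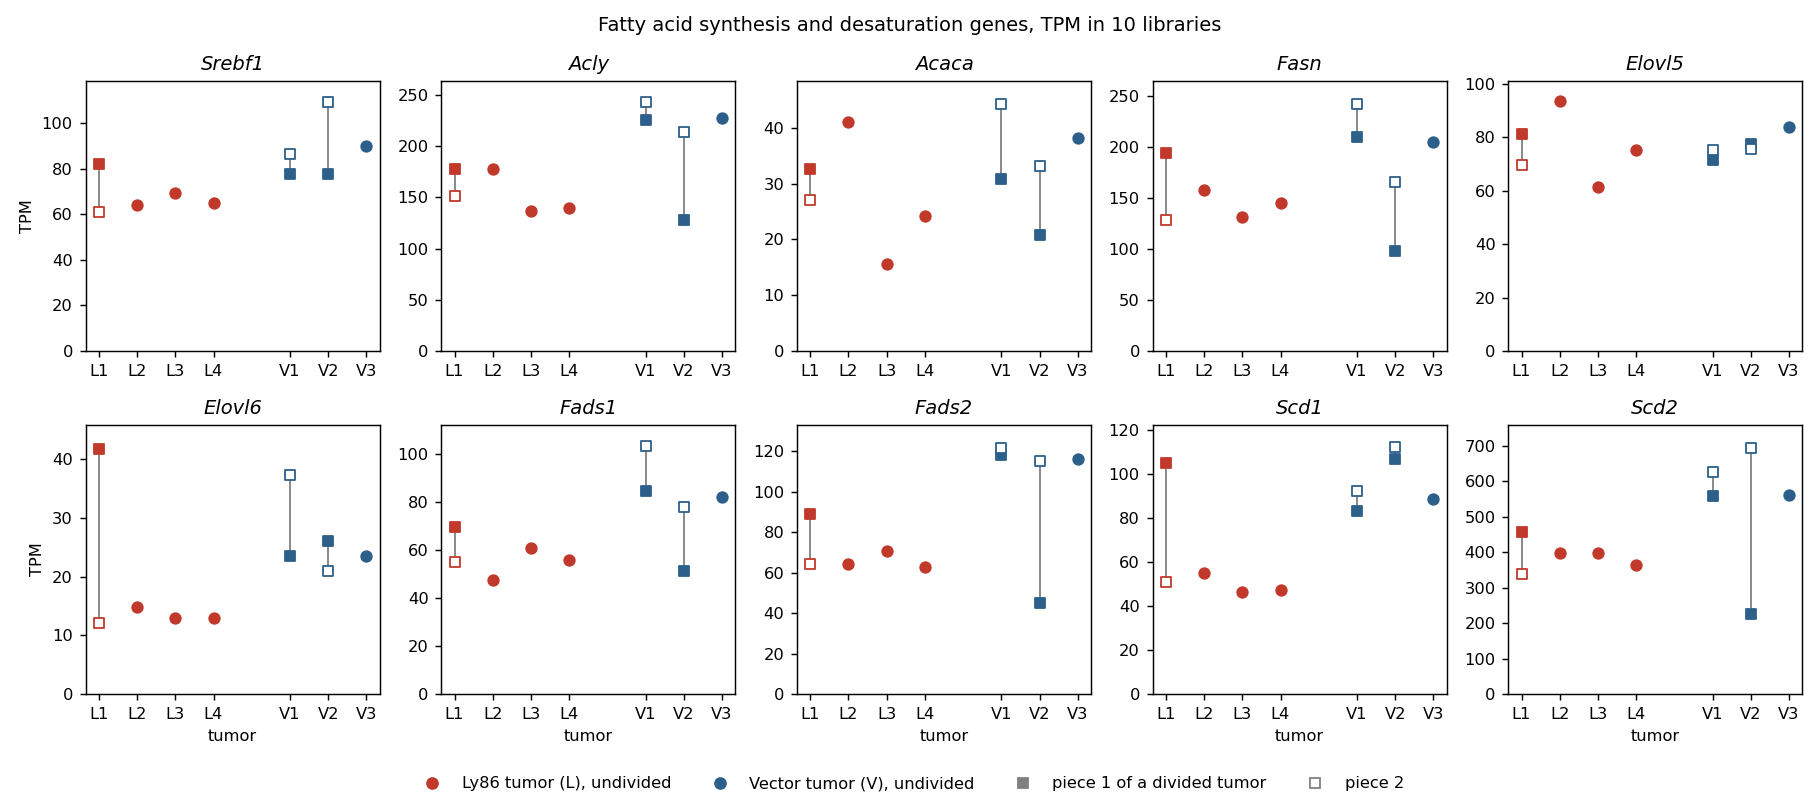
TPM of the 10 genes in each library, with Ly86 tumors (red) at the left and vector tumors (blue) at the right of each panel; squares joined by a line are the pieces of a divided tumor, filled for piece 1 and open for piece 2, and every axis starts at 0. For Fads2, the other 4 vector points sit at 115 to 122 TPM and piece 1 of vector tumor 2 at 45.1 TPM.

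Srebf1 encodes SREBP-1, the member of its family that mainly drives fatty acid genes. It held 81.9 and 61.1 TPM in the pieces of Ly86 tumor 1 and 63.9, 69.5 and 65.1 TPM in Ly86 tumors 2, 3 and 4, against 77.6 and 86.2 TPM in the pieces of vector tumor 1, 77.5 and 109 TPM in those of vector tumor 2 and 89.7 TPM in vector tumor 3. Apart from piece 1 of Ly86 tumor 1, every Ly86 library lay below every vector library. Tumor averages were 6.09 ± 0.07 log2(TPM + 1) for Ly86 (SD, n = 4) and 6.47 ± 0.09 for vector (SD, n = 3), a difference of -0.38 (SE 0.0915), and -0.46 without piece 1 of vector tumor 2. Srebf1 thus had the smallest standard error of the 10 genes. The table has a single value per symbol, so transcripts from the separate promoters of Srebf1 cannot be told apart.

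Acly encodes ATP citrate lyase, the supplier of acetyl-CoA. It held 177 and 151 TPM in the pieces of Ly86 tumor 1 and 178, 137 and 139 TPM in Ly86 tumors 2 to 4, against 226 and 243 TPM in vector tumor 1, 128 and 214 TPM in vector tumor 2 and 228 TPM in vector tumor 3. The first piece of vector tumor 2 was the lowest of all 10 libraries, and each of the other vector libraries lay above each Ly86 library. The averages were 7.27 ± 0.18 (SD, n = 4) in Ly86 and 7.70 ± 0.28 (SD, n = 3) in vector tumors, a difference of -0.43 (SE 0.154), and -0.55 without that piece of vector tumor 2.

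Acaca encodes acetyl-CoA carboxylase, the enzyme that commits acetyl-CoA to fatty acids. It held 32.6 and 27.0 TPM in Ly86 tumor 1 and 41.1, 15.6 and 24.2 TPM in Ly86 tumors 2 to 4, against 30.9 and 44.2 TPM in vector tumor 1, 20.8 and 33.1 TPM in vector tumor 2 and 38.1 TPM in vector tumor 3. Its Ly86 tumors spread more widely than for any other of the genes, and the groups overlapped. The difference was -0.34 (SE 0.298), with -0.11 when Ly86 tumor 3 was left out, -0.55 when Ly86 tumor 2 was and -0.51 when vector tumor 2 was. It was -0.45 without piece 1 of vector tumor 2 alone.

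Fasn encodes fatty acid synthase, which makes palmitate. It held 194 and 128 TPM in Ly86 tumor 1 and 157, 131 and 145 TPM in Ly86 tumors 2 to 4, against 209.7 and 242 TPM in vector tumor 1, 98.0 and 166 TPM in vector tumor 2 and 205 TPM in vector tumor 3. Vector tumors 1 and 3 lay above all Ly86 libraries, while piece 1 of vector tumor 2 lay below their range and its piece 2 inside it. The difference was -0.29 (SE 0.192), with -0.13 when vector tumor 1 was left out and -0.54 when vector tumor 2 was. Leaving out only piece 1 of vector tumor 2 gave -0.42.

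The elongases stood at opposite ends, Elovl5 with the smallest difference of the 10 genes and Elovl6 with one of the widest. Elovl5, which lengthens polyunsaturated chains, was the flattest of the 10, at 81.3 and 69.7 TPM in Ly86 tumor 1 and 93.7, 61.4 and 75.3 TPM in Ly86 tumors 2 to 4, against 71.6 and 75.1 TPM in vector tumor 1, 77.4 and 75.6 TPM in vector tumor 2 and 84.0 TPM in vector tumor 3. All its vector libraries lay inside the Ly86 range, and its difference of -0.04 (SE 0.144) turned positive when Ly86 tumor 3 (0.06) or vector tumor 3 (0.01) was left out and after quantile normalization (0.02). It was -0.04 without piece 1 of vector tumor 2. Elovl6, which extends palmitate to stearate, held 41.7 and 12.2 TPM in Ly86 tumor 1 and 14.9, 12.9 and 13.0 TPM in Ly86 tumors 2 to 4, against 23.5 and 37.2 TPM in vector tumor 1, 26.0 and 20.9 TPM in vector tumor 2 and 23.5 TPM in vector tumor 3. Here 4 of the 5 Ly86 libraries lay below every vector library, and piece 1 of Ly86 tumor 1 was the highest library of all. Its difference was -0.68 (SE 0.209), -0.89 without that piece and -0.63 without piece 1 of vector tumor 2.

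The proximal promoters of Fasn and Acly, whose levels were similar across tumors, and of Elovl5, the flattest gene, are shown to let their sequence be compared beside these values. Each is the stretch of 120 bases just before the annotated start, 5′ to 3′ on the gene's strand, from RefSeq on build GRCm38.p6, which is not the mm39 build named for the expression data. Capitals mark CCAAT, the core bound by NF-Y, a partner of SREBP at many promoters, and GGGCGG, the GC box bound by Sp1-type factors, each on either strand. Fasn lies on the minus strand at chr11:120824548-120824667, Acly on the minus strand at chr11:100528001-100528120 and Elovl5 on the plus strand at chr9:77917245-77917364.
Fasn: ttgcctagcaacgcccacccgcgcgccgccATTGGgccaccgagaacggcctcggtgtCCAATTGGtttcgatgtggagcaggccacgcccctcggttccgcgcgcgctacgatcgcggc
Acly: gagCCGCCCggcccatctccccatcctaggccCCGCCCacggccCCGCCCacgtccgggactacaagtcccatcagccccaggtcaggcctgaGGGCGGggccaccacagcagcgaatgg
Elovl5: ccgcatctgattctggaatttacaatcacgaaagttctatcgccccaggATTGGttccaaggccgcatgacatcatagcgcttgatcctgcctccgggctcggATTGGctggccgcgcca

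The Fasn stretch holds 3 CCAAT matches, of which the 2 within CCAATTGG overlap on opposite strands, and no GC box. The Acly stretch holds 4 GC boxes and no CCAAT, and the Elovl5 stretch holds 2 CCAAT matches and no GC box. Over all 32851 promoter windows of RefSeq, 21.3% hold a CCAAT and 26.5% a GC box in the same 120 bases. A sterol response element written as TCACNCCAC, searched on both strands, occurs in none of the 9 windows of 300 bases that matched 7 of the 10 genes, and in 1.24% of all windows. These matches are descriptions of letters in a window and say nothing of binding.

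Fads1 and Fads2 encode the delta-5 and delta-6 desaturases, which act in turn on polyunsaturated fatty acids. Fads1 held 69.6 and 55.3 TPM in Ly86 tumor 1 and 47.6, 61.1 and 56.1 TPM in Ly86 tumors 2 to 4, against 84.5 and 103 TPM in vector tumor 1, 51.5 and 78.0 TPM in vector tumor 2 and 82.3 TPM in vector tumor 3. Fads2 held 88.9 and 64.5 TPM in Ly86 tumor 1 and 64.1, 70.5 and 62.7 TPM in Ly86 tumors 2 to 4, against 118 and 122 TPM in vector tumor 1, 45.1 and 115 TPM in vector tumor 2 and 116 TPM in vector tumor 3. For both genes 4 of the 5 vector libraries lay above all Ly86 libraries, and piece 1 of vector tumor 2 lay among or below them. The difference was -0.47 (SE 0.156) for Fads1 and -0.55 (SE 0.182) for Fads2, and -0.57 and -0.77 without that piece. The ratio of Fads2 to Fads1 was 1.12 to 1.35 in Ly86 libraries and 1.18 to 1.47 in the other vector libraries, with 0.876 in piece 1 of vector tumor 2.

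Scd1 and Scd2 encode stearoyl-CoA desaturases, which place the first double bond in saturated chains. Scd1 held 105 and 50.9 TPM in Ly86 tumor 1 and 55.2, 46.6 and 47.5 TPM in Ly86 tumors 2 to 4, against 83.4 and 92.4 TPM in vector tumor 1, 107 and 112 TPM in vector tumor 2 and 88.8 TPM in vector tumor 3. As for Elovl6, 4 of the 5 Ly86 libraries lay below every vector library and piece 1 of Ly86 tumor 1 lay among the vector libraries. The averages were 5.80 ± 0.30 (SD, n = 4) in Ly86 and 6.58 ± 0.18 (SD, n = 3) in vector tumors, a difference of -0.78 (SE 0.172), the largest of the 10 genes, and -0.80 without piece 1 of vector tumor 2.

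Scd2 held 457 and 339 TPM in Ly86 tumor 1 and 399, 397 and 364 TPM in Ly86 tumors 2 to 4, against 559.7 and 626 TPM in vector tumor 1, 228 and 693 TPM in vector tumor 2 and 560.3 TPM in vector tumor 3. The pieces of vector tumor 2 were the lowest and the highest of all 10 libraries. The difference was -0.39 (SE 0.143), and -0.66 without piece 1 of vector tumor 2. In the protein-coding transcripts of GENCODE release M21, 48 of 4791 stretches of 100 bases of Scd1 (1.0%) also occur in Scd2, so few reads of that length could match both. Scd2 made up 66.0% to 89.4% of the summed TPM of Scd1 to Scd4, with the lowest share in piece 1 of vector tumor 2. The ratio of Scd2 to Scd1 was 4.36 and 6.66 in the pieces of Ly86 tumor 1 and 7.24, 8.51 and 7.66 in Ly86 tumors 2 to 4. It was 6.71 and 6.78 in vector tumor 1, 2.14 and 6.18 in vector tumor 2 and 6.31 in vector tumor 3. The lowest ratio of each group was in piece 1 of Ly86 tumor 1 and piece 1 of vector tumor 2.

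**Figure D2:**
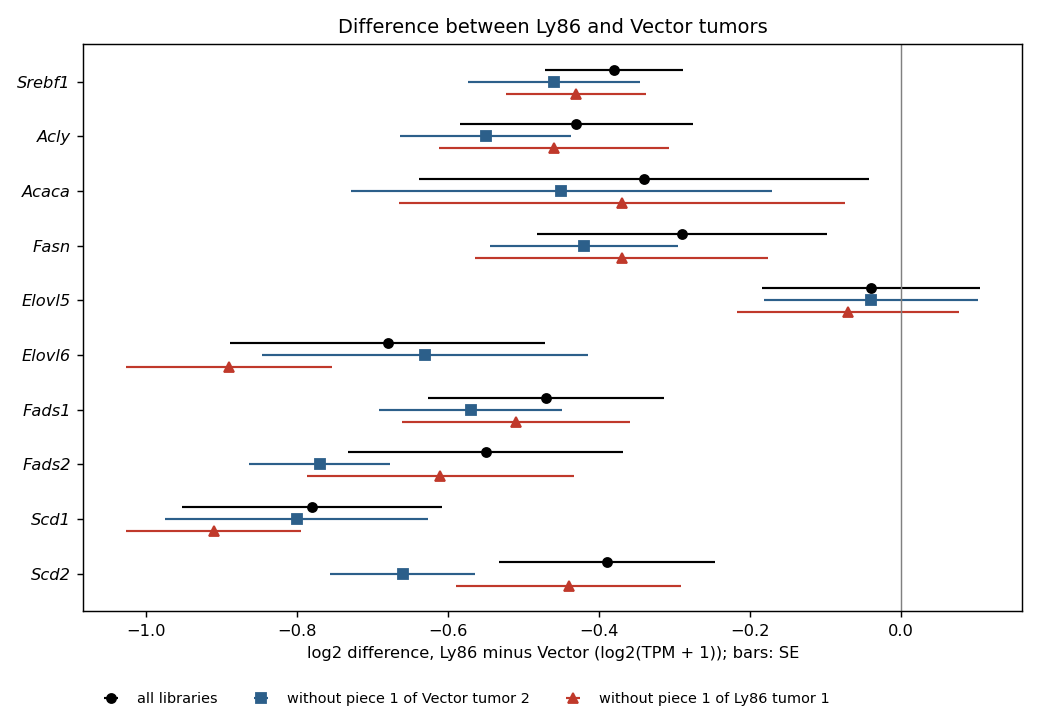
Difference in log2(TPM + 1) between Ly86 and vector tumors for the 10 genes (points) with its standard error (bars), from all libraries (black), without piece 1 of vector tumor 2 (blue) and without piece 1 of Ly86 tumor 1 (red). Elovl5 sits at 0 within its error in all 3 settings, while the difference of Scd2 is -0.39 with all libraries and -0.66 without piece 1 of vector tumor 2.

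In 2 of the 3 divided tumors the pieces of a tumor differed by as much as the groups did. In Ly86 tumor 1 all 10 genes were higher in the first piece, with a median absolute difference of 0.42 on the log2 scale and the largest for Elovl6 (1.69) and Scd1 (1.03). In vector tumor 1 all 10 were lower in the first piece, with a median of 0.16 and the largest for Elovl6 (-0.64). In vector tumor 2, 8 of the 10 were lower in the first piece, with a median of 0.62. Scd2 (-1.60) and Fads2 (-1.33) differed most there, and Elovl5 (0.03) and Elovl6 (0.31) were not lower. When piece 1 alone stood for each divided tumor, the median difference between Ly86 and vector was -0.24 and that of Scd2 was -0.04. When piece 2 alone did, the median was -0.63 and that of Scd2 was -0.74. The size of the difference thus depended on which piece was taken, while its sign did not for any of the 10 genes.

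**Figure D3:**
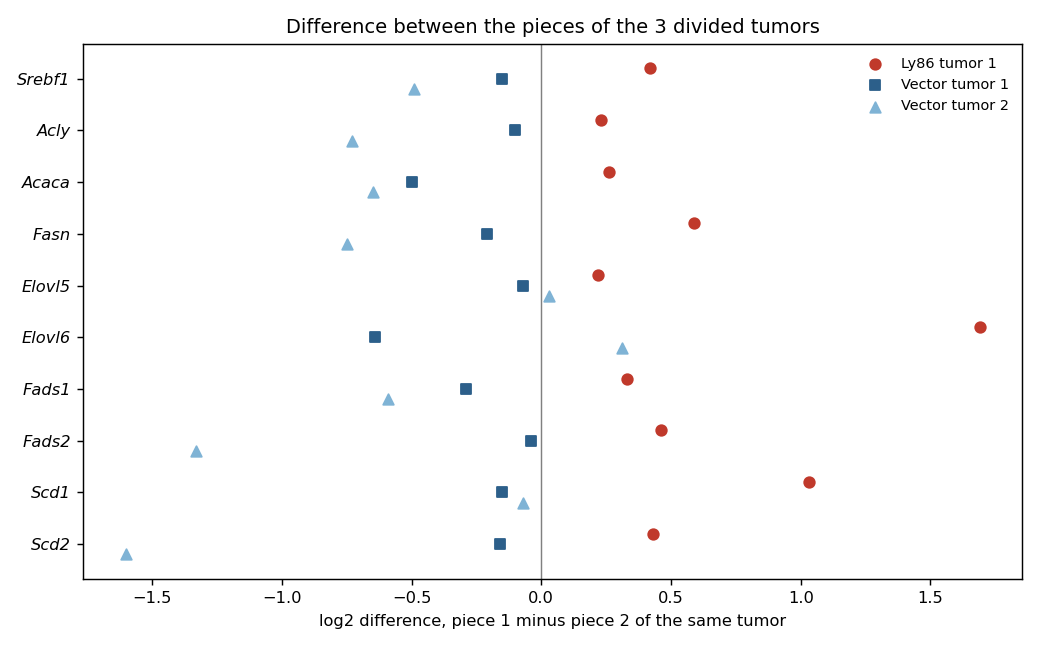
Difference in log2(TPM + 1) between piece 1 and piece 2 of the same tumor for the 10 genes, in Ly86 tumor 1 (red circles), vector tumor 1 (dark squares) and vector tumor 2 (light triangles). Scd2 and Fads2 lie furthest left in vector tumor 2, at -1.60 and -1.33, and Elovl6 furthest right in Ly86 tumor 1, at 1.69.

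Markers of host cells differed between groups and between pieces. In bulk RNA, fewer cells of a type and less RNA per cell cannot be told apart. All 11 macrophage markers averaged higher in Ly86 tumors, summing to 1124 to 2094 TPM in Ly86 libraries and 204 to 1052 TPM in vector libraries other than piece 1 of vector tumor 2, which held 3351 TPM. All 8 fibroblast markers did too, at 906 to 2620.4 TPM in Ly86 libraries and 97.1 to 719.7 TPM in the other vector libraries, with 4578 TPM in that piece. All 6 T cell markers averaged higher in Ly86 tumors, at 27.8 to 67.6 TPM in Ly86 libraries, 3.37 to 26.1 TPM in the other vector libraries and 89.6 TPM in that piece. Piece 1 of vector tumor 2, with the highest of these sums, was also the library with the least Fads2, Scd2, Fasn and Acly. The other divided tumors did not share one relation between these markers and the 10 genes. In Ly86 tumor 1, piece 1, where all 10 genes were higher, held less of the macrophage markers (1124 TPM, against 2094 TPM in piece 2) and of the fibroblast markers (1029 TPM, against 1711 TPM) but more of the T cell markers (63.2 TPM, against 58.0 TPM). In vector tumor 1, piece 1, where all 10 genes were lower, held less of the macrophage markers (204 TPM, against 320.1 TPM in piece 2), the fibroblast markers (121 TPM, against 409.9 TPM) and the T cell markers (3.37 TPM, against 3.8 TPM). With piece 1 alone for each divided tumor, 10 of 11 macrophage, 7 of 8 fibroblast and 6 of 6 T cell markers averaged higher in Ly86 tumors. The median differences were then 0.49, 0.86 and 0.74 on the log2 scale, against 1.24, 1.48 and 1.24 with all libraries. The part of these cells in the differences was not tested.

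Of the 10 melanocyte markers 6 averaged higher in Ly86 tumors, with a median difference of 0.01, while without piece 1 of vector tumor 2, 1 was higher and 9 lower, with a median of -0.15. With piece 1 alone for each divided tumor all 10 were higher, with a median of 0.19, and with piece 2 alone all 10 were lower, with a median of -0.16. With each gene set relative to the mean of these markers in its own library, the median difference of the 10 genes was -0.42, from -0.80 for Scd1 to -0.06 for Elovl5. Without piece 1 of vector tumor 2 it was -0.40, from -0.64 for Scd1 to 0.12 for Elovl5, whose value was then positive. All 4 markers of cycling cells averaged lower in Ly86 tumors, at 488 to 619 TPM in Ly86 libraries and 651 to 799 TPM in vector libraries other than piece 1 of vector tumor 2, which held 506 TPM. Of these 4 genes, 3 had an unadjusted limma p under 0.05 and lay lower, as did 4.97% of all genes tested. The part of cycling cells in the differences was not tested.

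Skin markers were highest in piece 1 of Ly86 tumor 1, the library where Scd1 and Elovl6 stood furthest above the other Ly86 libraries, and in piece 1 of vector tumor 2. The 7 keratinocyte markers, of which 0 averaged higher in Ly86 tumors, summed to 2375 TPM in piece 1 of Ly86 tumor 1 and 86.0 TPM in its second piece, against 0.31 to 7.02 TPM in the other Ly86 tumors. In vector libraries they summed to 672.5 TPM in piece 1 of vector tumor 2 and 0.0 to 43.1 TPM elsewhere. Without piece 1 of vector tumor 2, 5 of the 6 keratinocyte markers then tested averaged higher in Ly86 tumors. With piece 2 alone for each divided tumor, 0 of 4 did. The 4 sebocyte markers, genes of the wax- and lipid-secreting cells of hair follicles, of which 1 averaged higher in Ly86 tumors, summed to 11.0 TPM in piece 1 of Ly86 tumor 1 and 0.3 to 1.73 TPM in the other Ly86 libraries. They summed to 12.2 TPM in piece 1 of vector tumor 2 and 0.33 to 0.65 TPM in the other vector libraries, and the wax synthase gene Awat1 was at 0 in the 8 libraries outside these 2. Scd3, a desaturase gene that mouse sebaceous glands express, made up 1.1% of the Scd1 to Scd4 sum in piece 1 of Ly86 tumor 1 and 2.89% in that of vector tumor 2, and at most 0.0528% in the other libraries. Of the 7 adipocyte markers 4 averaged higher in Ly86 tumors. The 7 summed to 14.1 to 112 TPM in Ly86 libraries, 368 TPM in piece 1 of vector tumor 2 and 0.0 to 49.7 TPM in the other vector libraries. Without piece 1 of vector tumor 2, 5 of the 5 adipocyte markers then tested averaged higher. With piece 1 alone for each divided tumor, 0 of 6 did. The second piece of vector tumor 2, in which all adipocyte and keratinocyte markers were at 0, held the highest Scd1 and Scd2 of any library, and Scd1 was slightly lower in piece 1 of that tumor (107 TPM, against 112 TPM). Without piece 1 of Ly86 tumor 1, the differences of Scd1 and Elovl6 were -0.91 and -0.89. The part of skin cells in these differences was not tested.

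**Figure D4:**
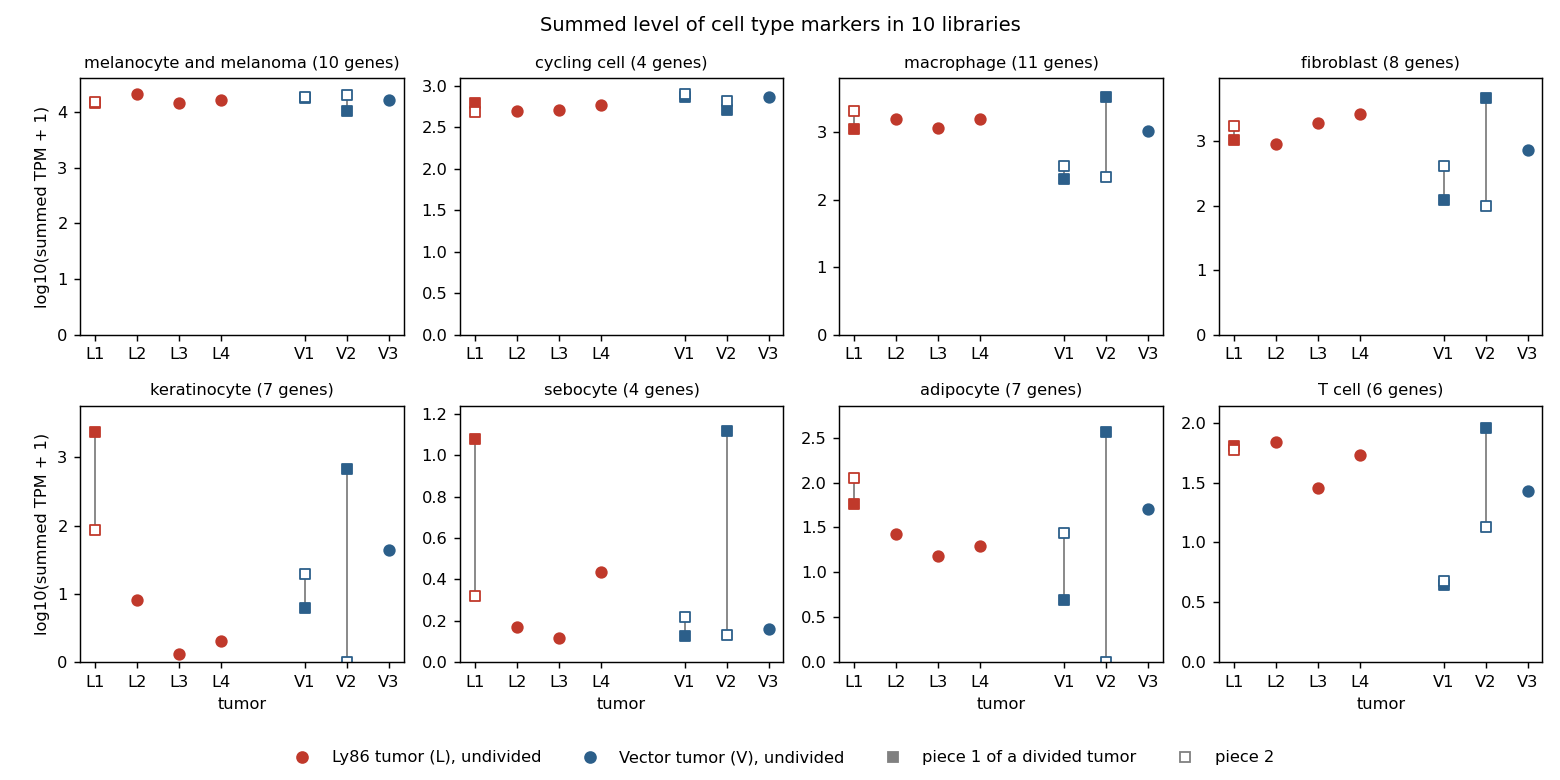
Summed TPM of cell type markers in each library as log10(summed TPM + 1), with Ly86 tumors at the left (red) and vector tumors at the right (blue), and pieces of divided tumors as joined squares, filled for piece 1. Macrophage and fibroblast sums are highest in piece 1 of vector tumor 2 (3351 and 4578 TPM), and keratinocyte sums are highest in piece 1 of Ly86 tumor 1 (2375 TPM).

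Per transcript length, the 10 genes formed tiers that could be compared over all 7 tumors. Scd2 was the most abundant, at a mean of 8.77 log2(TPM + 1), followed by Acly at 7.45, Fasn at 7.34, Fads2 at 6.35, Elovl5 at 6.28, Srebf1 at 6.26, Scd1 at 6.13, Fads1 at 6.05, Acaca at 4.91 and Elovl6 at 4.33. Neighbours in this order were compared by a two-sided exact permutation test that flips the sign of each tumor's difference, with Benjamini-Hochberg adjustment over the 9 pairs. The order was taken from the same 7 tumors, so the direction of each mean difference was set by the sorting and is no result of the test. Scd2 exceeded Acly by 1.32 ± 0.12 (SD, n = 7), Fasn exceeded Fads2 by 0.99 ± 0.19 and Fads1 exceeded Acaca by 1.14 ± 0.50, each in 7 of 7 tumors with an exact p of 0.0156, the smallest that 7 tumors allow, and an adjusted p of 0.0352. Acaca exceeded Elovl6 by 0.57 ± 0.44 in 7 of 7 tumors, with the same exact p. When piece 1 alone stood for each divided tumor, that pair differed by 0.41 ± 0.63, in order in 5 of 7 tumors (exact p = 0.141, adjusted 0.309), and Elovl6 exceeded Acaca in piece 1 of Ly86 tumor 1 (41.7 against 32.6 TPM). Acly and Fasn differed by 0.12 ± 0.14 (exact p = 0.0625, adjusted 0.113). Within the 5 genes from Fads2 to Fads1, neighbours did not differ from each other beyond their spread, with differences of 0.02 to 0.12 and exact p-values of 0.359 to 0.859.

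The likeness of 2 genes over tumors was measured as the root mean square difference of their log2 values after each gene was centred on its own mean of 7 tumors. Nearest to Srebf1, among 14555 other genes, were Pacsin2 at 0.0425, Nepro at 0.0527 and Chsy1 at 0.0623, where Srebf1 itself varied by 0.198 around its mean. Nearest to Fasn, which varied by 0.287, were Zc3hav1l at 0.0494, Adat1 at 0.0564 and Utp14b at 0.0674. Of the other 9 genes described here, Scd2 (0.122, rank 111) and Acly (0.127, rank 140) lay nearest to Fasn and Scd1 (0.433, rank 10177) furthest. Scd2 (0.211) and Fads1 (0.212) lay nearest to Srebf1, at ranks 2985 and 3051. By this measure the profile of Fasn was nearer to those of Scd2 and Acly than to that of Srebf1 (0.295, rank 5842). Centring over all 7 tumors keeps the difference between Ly86 and vector tumors in the measure. The genes described here were picked with that difference known, so their distances and ranks may partly reflect the choice. The first piece of vector tumor 2, the lowest library for Fasn, Acly and Scd2, was included. Likeness without that piece was not tested.

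Related genes were taken from 6 lists of 113 genes, of which 108 were tested, chosen by function and with earlier results of these data known. Over all genes 0 passed limma's adjusted p, and at an unadjusted limma p under 0.05 there were 9 higher and 8 lower, where the shares over all genes tested were 5.78% and 4.97%. These shares over all genes were 11.1% and 9.53% without piece 1 of vector tumor 2. In the other fatty acid synthesis genes, 7 of 17 tested were higher and 10 lower, with a median difference of -0.03 and none at an unadjusted p under 0.05. Cbr4, a subunit of the mitochondrial ketoacyl reductase, differed by 0.17 (SE 0.107, limma adjusted p = 0.583), Acss2, which activates acetate, by -0.21 (SE 0.148, adjusted p = 0.634) and Acsl3, an acyl-CoA synthetase, by -0.31 (SE 0.224, adjusted p = 0.637). Without piece 1 of vector tumor 2, Acss2 differed by -0.37 and Acsl3 by -0.58, and without vector tumor 1 Acsl3 differed by -0.09. With piece 1 alone for each divided tumor, Acss2 differed by -0.05 and Acsl3 by -0.0. In the other elongation and desaturation genes, 5 of 16 were higher and 11 lower, with a median of -0.10. Hacd4, an acyl-CoA dehydratase, differed by 0.68 (SE 0.18, adjusted p = 0.437), with 7.03 to 12.4 TPM in Ly86 libraries and 4.86 to 9.11 TPM in vector libraries. Cyb5b, a cytochrome b5, differed by -0.27 (SE 0.112) and Hsd17b12, the ketoacyl reductase of elongation, by -0.17 (SE 0.0869). With piece 1 of vector tumor 2 left out, Hacd4 differed by 0.79, Cyb5b by -0.40 and Hsd17b12 by -0.24. With piece 1 alone for each divided tumor, they differed by 0.50, -0.09 and -0.04.

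**Figure D5:**
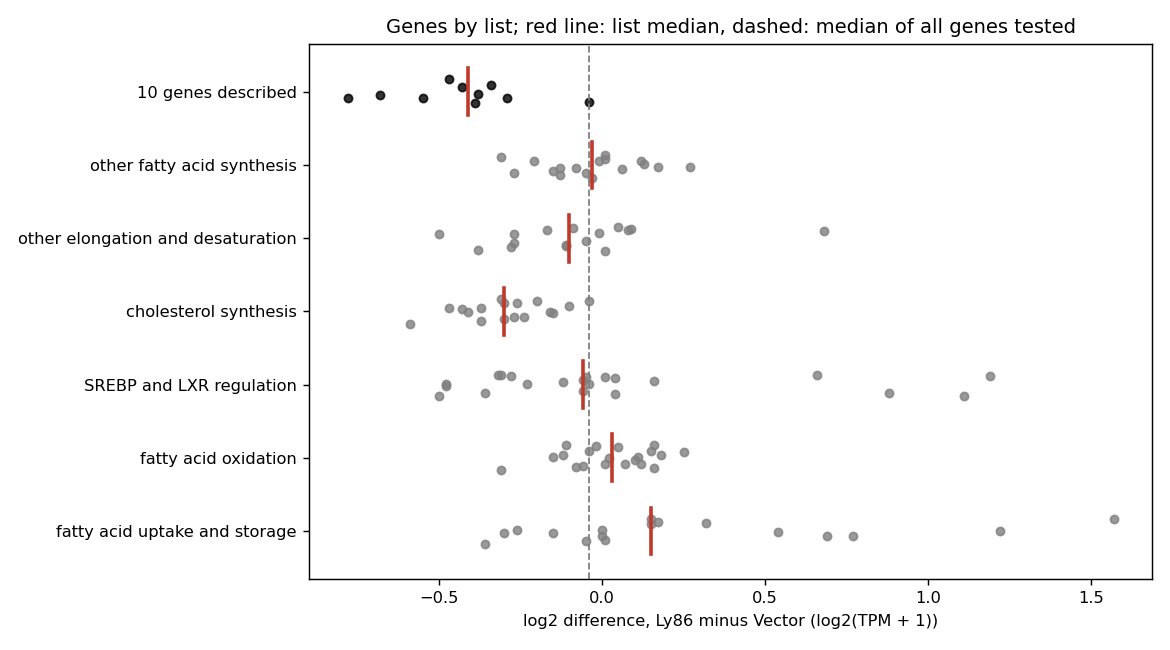
Difference in log2(TPM + 1) between Ly86 and vector tumors for each tested gene (points) of the 10 genes described and of 6 related lists, with each list's median (red line) and the median of all genes tested (dashed line, -0.04). The median is -0.41 for the 10 genes, -0.30 for cholesterol synthesis and 0.15 for fatty acid uptake and storage.

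Cholesterol synthesis genes, which SREBP-2 (Srebf2) drives, lay on the same side as the 10 genes. All 17 were lower in Ly86 tumors, with a median of -0.30, though 0 had groups that did not overlap and 2 an unadjusted limma p under 0.05. Without piece 1 of vector tumor 2 the median was -0.46, all 17 were again lower and 15 had such a p. Of all genes tested, 9.53% were lower with such a p in that setting, against 4.97% with all libraries. With piece 1 alone for each divided tumor, 12 of the 17 were lower, the median was -0.05 and 0 had such a p. Dhcr7, the last reductase of the pathway, differed by -0.37 (SE 0.149, limma adjusted p = 0.454) and Pmvk, a mevalonate pathway kinase, by -0.59 (SE 0.272, adjusted p = 0.481). Dhcr7 differed by -0.60 without piece 1 of vector tumor 2, by -0.04 with piece 1 alone for each divided tumor and by -0.69 with piece 2 alone. Pmvk differed by -0.36 without Ly86 tumor 4. In the regulators, 8 of 21 were higher and 13 lower, with a median of -0.06 and 4 higher and 5 lower at an unadjusted p under 0.05.

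The regulators differed in both directions. Srebf2 held 83.0 to 114 TPM in Ly86 libraries and 80.8 to 152 TPM in vector libraries, a difference of -0.48 (SE 0.115, limma adjusted p = 0.437), with -0.24 when piece 1 alone stood for each divided tumor and -0.71 (adjusted p = 0.0366) when piece 2 alone did. Scap, the escort of SREBP, differed by -0.48 (SE 0.172), Insig1, which retains SREBP, by -0.50 (SE 0.188) and Mbtps1, the protease that releases it, by -0.32 (SE 0.125), with an adjusted p of 0.441 to 0.449. Their relatives Insig2 and Mbtps2 differed by 0.16 and -0.12. Nr1h3, the gene of the oxysterol receptor LXR alpha, differed by 1.19 (SE 0.487). Abca1 and Abcg1, which export cholesterol, differed by 0.88 (SE 0.318) and 1.11 (SE 0.447). The limma adjusted p of these genes was 0.441 to 0.455. Without piece 1 of vector tumor 2, Insig1 differed by -0.77, Abca1 by 1.33 and Abcg1 by 1.67. With piece 1 alone for each divided tumor, Insig1 differed by -0.14, Abca1 by 0.45 and Abcg1 by 0.55. In that setting Scap differed by -0.23, Mbtps1 by -0.20 and Nr1h3 by 0.73. Abca1 held 32.6 TPM in piece 1 of vector tumor 2, where macrophage markers were also highest, and 4.26 TPM in the second. Mylip, a ubiquitin ligase, differed by 0.66 (SE 0.195, limma adjusted p = 0.437). Lpcat3, which puts polyunsaturated chains into phospholipids, differed by -0.31 (SE 0.107, limma adjusted p = 0.441). Scap, Insig1, Mbtps1, Nr1h3, Abca1 and Abcg1 were named after their values were seen, as the other regulators at an unadjusted p under 0.05.

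Uptake and storage genes included the largest positive differences of the 6 lists, those of Lpl and Cd36. Of 17 tested, 12 were higher, with a median of 0.15 and 3 at an unadjusted limma p under 0.05. The median was 0.30 without piece 1 of vector tumor 2, and with piece 1 alone for each divided tumor it was 0.0. Lpl, the lipase that frees fatty acids from lipoproteins, held 99.1 and 118 TPM in Ly86 tumor 1 and 74.5, 80.3 and 127 TPM in Ly86 tumors 2 to 4, against 12.8 and 19.3 TPM in vector tumor 1, 163 and 8.38 TPM in vector tumor 2 and 50.4 TPM in vector tumor 3. Its difference was 1.57 (SE 0.37, limma adjusted p = 0.437), and piece 1 of vector tumor 2 was its highest library. Cd36, a fatty acid carrier, differed by 1.22 (SE 0.288) and Plin2, a coat protein of lipid droplets, by 0.69 (SE 0.20), each with an adjusted p of 0.437. Both were likewise highest in that piece, at 138 and 302 TPM, which is the library lowest in Fads2, Scd2, Fasn and Acly. Without it, Lpl differed by 2.26, Cd36 by 1.90 and Plin2 by 0.96, and with piece 1 alone for each divided tumor by 0.95, 0.55 and 0.37. Fatty acid oxidation genes had a median of 0.03, with 12 of 20 higher. Acadvl and Acadl, acyl-CoA dehydrogenases of mitochondria, differed by 0.25 (SE 0.109, adjusted p = 0.461) and 0.16 (SE 0.0898, adjusted p = 0.551), and the receptor gene Ppard by -0.31 (SE 0.152, adjusted p = 0.504). Ppard differed by -0.20 without Ly86 tumor 3.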

How the data were processed

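RNA sequencing covered 10 libraries of polyadenylated RNA from 4 Ly86 and 3 vector tumors. Per the submitters' processing notes, build mm39 was used, with RSEM 1.3.3 (an abundance estimator) and STAR 2.7.10b (an aligner). Values in the table deposited by the authors are log2(TPM + 1). That scale was read from the values, of which 99.9% gave a multiple of 0.01 TPM to within 1e-04 hundredths, with sums of 994679 to 996446 TPM per library. TPM estimates can spread ambiguous reads between similar transcripts, and depth is unknown. Labels do not say that tumors came from different mice, so the spread behind the p-values is that between the tumors sampled and may be partly technical.

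Log2 values of pieces were averaged per tumor. Genes averaging 1 TPM or more were fitted with limma 3.58.1 (lmFit, eBayes with trend) in R 4.3.3, with no block, Benjamini-Hochberg adjustment over all genes tested and a threshold of 0.05. The fit was tested on simulated data. Differences are Ly86 minus vector, and the pseudocount of 1 understates changes of low genes. The planned test had assumed TPM and needed no change for log2 values.

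The 10 genes, the 6 related lists and the 11 marker lists were chosen with earlier results of these data known. Named were the 10 genes, Ly86, the 3 genes with the smallest unadjusted p of each related list and the 3 genes most like Srebf1 and Fasn, leaving out Gm and Rik names. The result of 1 gene that this rule names is not reported here. RefSeq promoter windows, 250 bases before to 50 after each start, matched 7 of the 10 genes. Promoters to print were chosen after the values were seen. Alternatives were other pseudocounts (0.1, 0.5), filters (none, 5) and scalings, a random block, single pieces, no trend, each tumor left out in turn and a block for the tumor number. Leaving out single pieces and scaling to melanocyte markers were added after the data were seen. Figures used matplotlib 3.10.9 in Python 3.11.15.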

Additional observations from a re-analysis of the deposited data

Results flagged for a closer look

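Ly86 tumor 4 had the lowest Scd2 of the Ly86 tumors, 8.51 log2(TPM + 1), and stood apart from the other 3, which lay between 8.62 and 8.65. The gap to its neighbour, as a share of the range of the group, was above Dixon's critical value for 4 samples. It was the only such value among 29 genes examined in the Ly86 tumors, and chance marks about 1 in 20. The value of Ly86 tumor 1 was a mean of 2 pieces, at 457 and 339 TPM. The second of them lay below Ly86 tumor 4 (364 TPM), so tumor 4 was inside the range of the single Ly86 libraries. The vector group, with 3 tumors, was not examined in this way.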

How the results depend on the processing

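Of the 10 genes, 10 averaged lower in Ly86 tumors, and 9 or 10 did in each of the 21 alternatives, Elovl5 being the exception. Changing the filter or leaving out the trend cannot alter a gene's own difference, so those alternatives agreed by construction. Of 210 alternative differences, these included, 207 lay below 0 and 202 moved by less than the spread between tumors. The 8 that moved further were of Fads2, Scd2 and Srebf1. They came from using only first or only second pieces or from dropping piece 1 of vector tumor 2. The cause was not tested. The median of the 10 was -0.41, with -0.24 from first pieces only, -0.63 from second pieces only, -0.56 without piece 1 of vector tumor 2 and -0.58 to -0.34 leaving out a tumor, furthest without vector tumor 2. No gene passed limma's adjusted p, against 1 from first pieces only, 37 from second pieces only, 3 without piece 1 of vector tumor 2 and 0 to 2 leaving out a tumor. The 37, of 14370 genes tested from second pieces only, included 3 of the 10 genes. They were Fads2 (limma adjusted p = 0.0235), Scd1 (0.0366) and Scd2 (0.0438), and nothing is read from this, as the genes were picked with this contrast known. At an unadjusted limma p under 0.05 there were 1565 genes, against 315 from first pieces only, 3268 from second pieces only, 2970 without piece 1 of vector tumor 2 and 870 to 2574 leaving out a tumor (870 without vector tumor 1, 2574 without vector tumor 2, 983 without Ly86 tumor 4, 1012 without vector tumor 3). Of the 108 related genes tested, 17 had such a p, against 5 with 10 libraries and the tumor as a random block, 1 from first pieces only, 41 from second pieces only, 37 without piece 1 of vector tumor 2 and 7 to 30 leaving out a tumor (7 without vector tumor 1, 8 without Ly86 tumor 4, 9 and 30 without vector tumors 3 and 2). With the tumor number as a replicate block, 643 genes and 6 related genes had an unadjusted p under 0.05. The labels give the number no shared meaning, the deviations of same-numbered tumors correlated at -0.172, -0.11 and -0.308, and no Ly86 tumor correlated best with the vector tumor of its number. Of the 9 neighbour pairs in the order of levels, 4 passed, against 3 from first pieces only and 0 leaving out any tumor, since 6 tumors allow no exact p below 0.0312 and 6 pairs would have to reach it. Depth is unknown, so no limit of detection is given.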

Other observations

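Of the markers of other cell types, 3 of 6 for Schwann cells, 2 of 5 for endothelium and 0 of 5 for skeletal muscle averaged higher in Ly86 tumors. Without piece 1 of vector tumor 2, 5 of 5 did for endothelium, 2 of 5 for skeletal muscle and 2 of the 5 tested for Schwann cells. With piece 1 alone for each divided tumor, 0 of 5 did for endothelium and 0 of 5 for skeletal muscle. Schwann cell markers summed to 129.6 to 208 TPM in Ly86 libraries and 129.8 to 275 TPM in vector libraries. Endothelial markers summed to 50.5 to 113 TPM in Ly86 libraries and 30.5 to 223 TPM in vector libraries, or 30.5 to 74.7 TPM without piece 1 of vector tumor 2. Skeletal muscle markers summed to 3.59 to 893 TPM in Ly86 libraries and 19.6 to 257 TPM in vector libraries. The muscle sum was highest in the second piece of Ly86 tumor 1, and its first piece held 21.1 TPM. The ratio of Fasn to Acaca ranged from 3.83 in Ly86 tumor 2 to 8.40 in Ly86 tumor 3, and from 4.72 to 6.79 in vector libraries, so the Ly86 tumors differed more among themselves in this ratio than the vector tumors did. The ratio of Elovl6 to Elovl5 was 0.159 to 0.211 in 4 Ly86 libraries and 0.513 in piece 1 of Ly86 tumor 1, against 0.276 to 0.495 in vector libraries.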
